A study of Mus musculus with 10 samples.

Results

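The genes described here are *Igf1*, its receptor *Igf1r*, the mannose 6-phosphate and IGF2 receptor *Igf2r*, and 6 genes for IGF binding proteins, *Igfbp2*, *Igfbp3*, *Igfbp4*, *Igfbp5*, *Igfbp6* and *Igfbp7*. They were chosen by symbol and are 9 of 55453 gene symbols in the deposited table, and all 9 passed edgeR's low-count filter, which kept 14614 genes. The series holds 1 RNA-seq library from each of 10 aortae, taken from male C57BL/6 mice, 5 of them young (14.5 weeks) and 5 old (92.5 weeks). The labels name no genotype or agent that differs between the groups, only males were used, and the fat around the aortae had been removed before RNA extraction. The question was which transcripts differ between the ages.

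IGF1 is a small secreted hormone that resembles insulin. Much of the circulating hormone comes from the liver under the control of growth hormone, but many tissues, the vessel wall included, also make their own. It binds the receptor tyrosine kinase IGF1R, which signals through insulin receptor substrates to PI3 kinase and Akt and through Ras to MAP kinase, and in smooth muscle cells this promotes growth and survival. IGF2R carries IGF2 to the lysosome. The binding proteins hold IGFs in the blood and in tissue and so set how much hormone reaches the receptor, and proteases such as PAPP-A release it again.

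Total counts on genes lay between 19640401 and 22886153 per library. Counts of mitochondrial genes took 4.50% to 6.22% of a young library and 5.19% to 11.0% of an old one, and the highest share belonged to old replicate 2, whereas no other old library was above 6.51%. Normalized counts are the deposited counts scaled by DESeq2 size factors, and log2 fold changes are old over young from edgeR's quasi-likelihood test, each with its standard error (SE). A gene was called at a Benjamini-Hochberg adjusted p below 0.05 over all genes tested. In bulk RNA, fewer cells of a type and less RNA per cell cannot be told apart.

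In old aortae *Igfbp2* and *Igfbp4* were higher and *Igf1* was lower, whereas neither receptor nor the other binding proteins passed the test. Thus 3 of the 9 genes were called, against 11.5% of all genes tested: 2 were higher, where 6.48% of all genes were, and 1 was lower, where 4.99% were. *Igfbp2* rose 5.92-fold in mean normalized count, *Igfbp4* rose 1.42-fold, and *Igf1* was 1.35-fold higher in young than in old aortae. The median log2 fold change was 0.068 over the 9 genes and 0.0034 over all genes tested. None of the 9 genes had all old aortae on one side of all young aortae, while 9.92% of the genes tested did, 5.37% with old above young and 4.55% with old below. The plot of normalized counts by mouse shows this overlap for each gene.

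**Figure D1:**
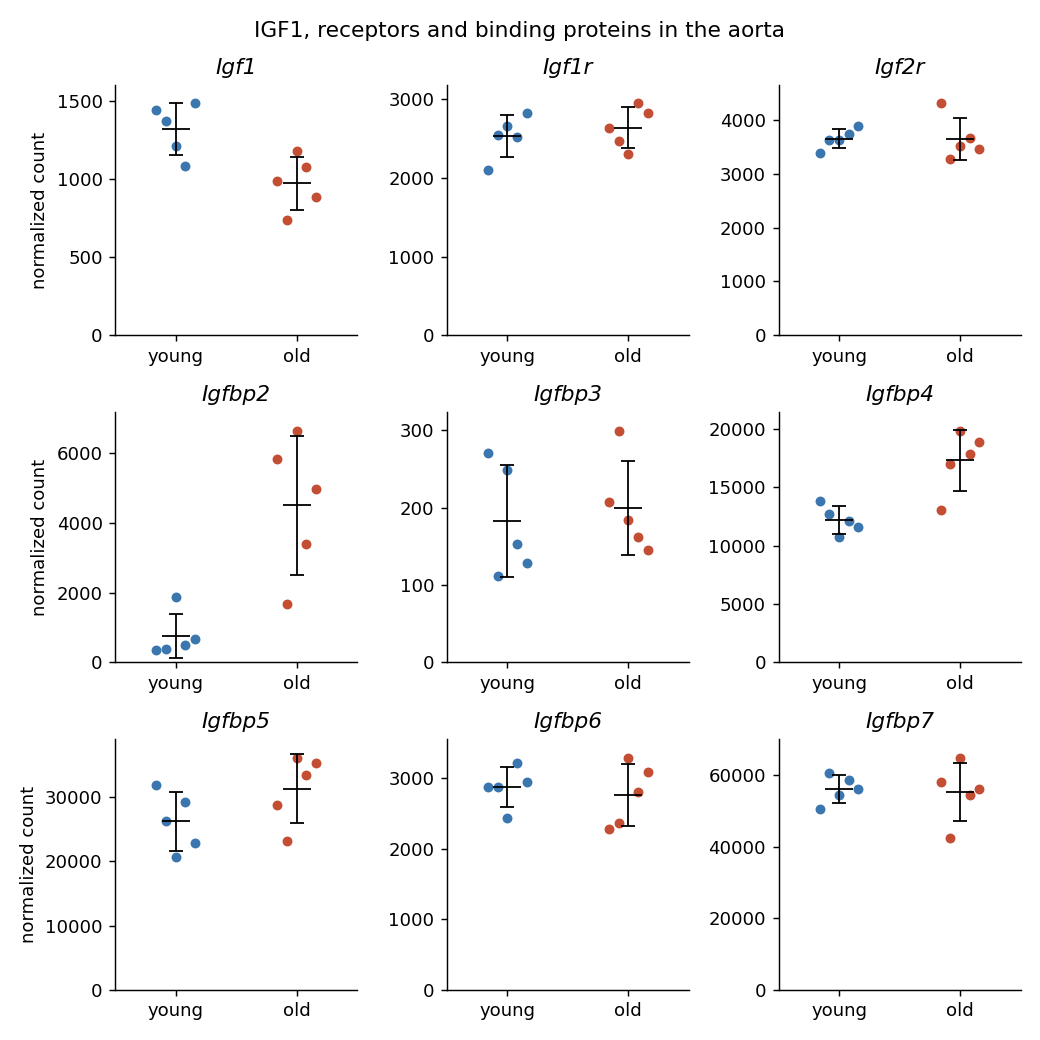
Normalized counts (vertical axes, linear from 0) of the 9 genes in 5 young (blue) and 5 old (red) aortae. Each point is 1 mouse, the long bar the mean and the whiskers the SD. *Igfbp2* shows the largest step, from a mean of 759.9 to 4501, and the old and young points overlap in every panel.

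*Igf1* (chromosome 10, 87858265 to 87937042, plus strand, GRCm38) encodes the ligand. Its normalized counts were 1441, 1371, 1215, 1086 and 1485 in the young aortae and 986, 741, 1178, 1081 and 888 in the old aortae. Only old replicate 3 lay within the young range, and the other 4 old aortae lay below every young aorta, replicate 4 by a small margin. The mean fell from 1319.7 ± 166 (SD, n = 5) to 975 ± 169.5 (SD, n = 5), a log2 fold change of -0.43 with an SE of 0.12 (adjusted p = 0.0394 by edgeR and Benjamini-Hochberg). This call was close to the threshold. Among 20 alternatives *Igf1* was lower in old aortae in all 20 and called in 9, and its Benjamini-Hochberg adjusted p ranged from 0.00871 (DESeq2) to 0.0994 (edgeR with the replicate number as a block). With young replicate 1, 2 or 5 left out, the edgeR adjusted p was 0.0640, 0.0801 or 0.0859. With old replicate 1, 2 or 5 left out, it was 0.0670, 0.0526 or 0.0935.

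Neither receptor gene was called. *Igf1r* (chromosome 7, 67952827 to 68233668) had 2098, 2546, 2654, 2517 and 2824 normalized counts in young and 2636, 2470.3, 2298, 2942 and 2826 in old aortae. Of the old values 3 fell within the young range and 2 just above it, with a log2 fold change of 0.068 with an SE of 0.085 (adjusted p = 0.666 by edgeR and Benjamini-Hochberg). *Igf2r* (chromosome 17, 12682406 to 12769664) had 3391, 3623, 3629, 3748 and 3886 in young and 4306, 3269, 3508, 3674 and 3464 in old aortae. Both the highest and the lowest of its 10 values came from old aortae, and the log2 fold change was 0.0037 with an SE of 0.073 (adjusted p = 0.983 by edgeR and Benjamini-Hochberg), with a sign that changed between settings.

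*Igfbp2* (chromosome 1, 72824503 to 72852474, plus strand) encodes a binding protein that is abundant in the fetus and in blood. It had 359, 391, 1881, 505 and 663 normalized counts in the young aortae. The old aortae had 5840.1, 1676, 6641, 3392 and 4957. The old aortae were several times higher in 4 of 5 mice, while old replicate 2 lay between young replicate 3 and the other young aortae, so that only this pair overlapped. The mean rose from 759.9 ± 638 (SD, n = 5) to 4501 ± 1987 (SD, n = 5), a log2 fold change of 2.57 with an SE of 0.56 (adjusted p = 0.0177 by edgeR and Benjamini-Hochberg). By size of the fold change it held place 21 among the 947 genes called higher. Its spread between mice was also the widest of the 9 genes, with a coefficient of variation of 84.0% in young and 44.1% in old aortae. With 1 mouse left out the log2 fold change stayed between 2.39 and 3.24, and the call was lost only without young replicate 4 (edgeR adjusted p = 0.0531). Young replicate 3 had the highest summed count of 10 endothelial markers among the young aortae (38304, the others 22775 to 32235). Old replicate 2 had the highest among the old aortae (27065), but the lowest *Igfbp2* of them. Young replicate 1, with the next highest young sum (32235), had the lowest *Igfbp2* of all aortae (359). In the old aortae the sums were 16218, 27065, 13233.5, 19701 and 14261 for replicates 1 to 5. *Igfbp2* was thus mostly higher in the old aortae with a lower sum, and only replicates 1 and 5 broke this order. The young aortae did not show it, since replicate 3 had both the highest sum and the highest *Igfbp2*. The part of endothelial RNA in the *Igfbp2* counts was not tested.

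The bases before the RefSeq start of *Igfbp2* are shown because it had the largest change among the 9 genes. RefSeq gives 2 starts, and the window before the outer one is shown, since the other window (chr1:72825137-72825386) holds 65 bases of *Igfbp2* exon and has no match to the motifs searched. The window shown is chr1:72824230-72824479 on the plus strand of GRCm38, 250 bases long, of which 67.2% are G or C and which holds 14 CpG dinucleotides. Capitals mark matches on either strand to the GC box letters GGGCGG, found 3 times, and to the E-box letters CACGTG, found 1 time.
Igfbp2: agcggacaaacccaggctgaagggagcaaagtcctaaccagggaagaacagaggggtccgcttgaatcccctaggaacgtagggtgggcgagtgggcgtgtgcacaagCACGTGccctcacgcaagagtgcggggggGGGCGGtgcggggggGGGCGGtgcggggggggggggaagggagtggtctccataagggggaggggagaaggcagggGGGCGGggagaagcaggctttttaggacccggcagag
Of 32851 RefSeq promoter windows of the same length, 32.7% hold a GC box and 6.02% hold this E-box. The letters of the TATA box (TATAAA, in 12.4% of windows) and of the FoxO motif (GTAAACA, in 3.17%) were searched on both strands too and are not in this window.

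*Igfbp4* (chromosome 11, 99041244 to 99054392, plus strand) encodes a binding protein that mostly restrains IGF action and is a substrate of PAPP-A. The young aortae had 13879, 12741, 10745, 12117 and 11603 normalized counts. The old aortae had 13050.2, 17041, 19865, 17825 and 18863. Only old replicate 1 fell within the young range, and the other old aortae exceeded every young aorta. The mean rose from 12217 ± 1182 (SD, n = 5) to 17329 ± 2618 (SD, n = 5), a log2 fold change of 0.51 with an SE of 0.11 (adjusted p = 0.00754 by edgeR and Benjamini-Hochberg). *Igfbp4* was the only one of the 3 called genes that was called in all 20 alternatives, with a log2 fold change between 0.45 and 0.60.

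The corresponding window of *Igfbp4*, the other binding protein gene that rose, is chr11:99040994-99041243 on the plus strand of GRCm38. It has 69.2% G or C and 22 CpG dinucleotides, and the capitals mark 1 match to the TATA box letters TATAAA near the start.
Igfbp4: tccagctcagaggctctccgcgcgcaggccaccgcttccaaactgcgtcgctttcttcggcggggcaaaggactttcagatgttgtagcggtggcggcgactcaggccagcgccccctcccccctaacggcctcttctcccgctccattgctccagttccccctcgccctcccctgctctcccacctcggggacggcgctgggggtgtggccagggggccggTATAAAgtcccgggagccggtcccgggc
No GC box, E-box or FoxO letters as given above were found in it. For *Igf1* the window before the RefSeq start lies wholly within *Igf1* exons of the GENCODE annotation, and it is not shown.

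*Igfbp5* (chromosome 1, 72857932 to 72874884, minus strand) encodes a binding protein that associates with extracellular matrix. It lies next to *Igfbp2*, with 5457 bases between the ends of both genes, which point towards each other. It had 31911, 26357, 20724, 29242 and 22926.5 normalized counts in young and 28779, 23179.9, 36147, 33429 and 35278 in old aortae. The 3 highest values were old, but the other old aortae lay inside the young range. Its log2 fold change was 0.27 with an SE of 0.14 (adjusted p = 0.246 by edgeR and Benjamini-Hochberg), and it was positive in all 20 alternatives and called in none. In the young aorta with the highest *Igfbp2*, replicate 3, *Igfbp5* was the lowest of the young values, whereas in old replicate 2 both genes were the lowest of the old values.

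*Igfbp7* (chromosome 5, 77349240 to 77408041) encodes a related protein with weak affinity for IGFs that is secreted by vascular cells. It had 50556, 60675, 54542, 58581 and 56094 normalized counts in young and 58275, 42454, 64914, 54594 and 56282 in old aortae. The means were nearly equal and the old aortae spread more widely on both sides, with a log2 fold change of -0.012 with an SE of 0.10 (adjusted p = 0.956 by edgeR and Benjamini-Hochberg). On the opposite strand *Polr2b* overlaps 7.03% of its exonic sequence. *Igfbp6* (chromosome 15, 102144362 to 102149511), which prefers IGF2, had 2874, 2884, 2437, 3221 and 2952 in young and 2284, 2366, 3292, 2806 and 3092 in old aortae. Its log2 fold change was -0.046 with an SE of 0.10 (adjusted p = 0.827 by edgeR and Benjamini-Hochberg). *Igfbp3* (chromosome 11, 7206086 to 7213923), the main IGF carrier in blood, was low in the aorta, with 271, 112, 248, 153 and 129 in young and 208, 299.7, 185, 162 and 145 in old aortae. Its log2 fold change was 0.14 with an SE of 0.28 (adjusted p = 0.806 by edgeR and Benjamini-Hochberg), the largest SE among the genes that were not called. The signs of *Igfbp3*, *Igfbp6* and *Igfbp7* each changed in some settings.

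Old replicate 2, the library with the high mitochondrial share, had the lowest old value of 5 of the 9 genes (*Igf1*, *Igf2r*, *Igfbp2*, *Igfbp5* and *Igfbp7*) and the highest of *Igfbp3*. Without it the log2 fold change was -0.35 for *Igf1* and 2.78 for *Igfbp2*. The direction of *Igfbp2*, *Igfbp4*, *Igfbp5*, *Igf1r* and *Igf1* was the same with any 1 mouse left out. The plot of fold changes gives this range beside the SE.

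**Figure D2:**
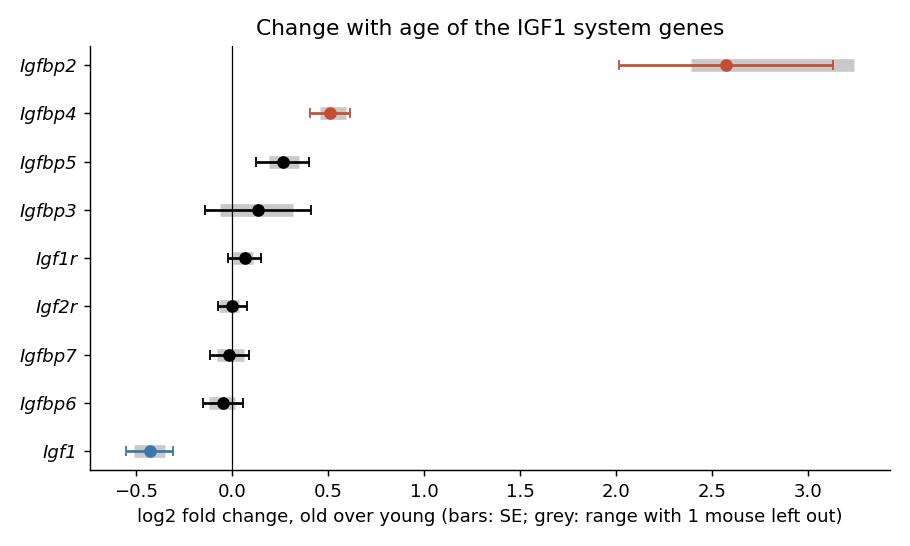
Log2 fold change, old over young, of the 9 genes (horizontal axis) from edgeR with whiskers of 1 SE. Red and blue mark genes called higher and lower, black marks genes that were not called, and grey bars give the range with 1 mouse left out. The range of *Igfbp2* runs from 2.39 to 3.24 and that of *Igf1* from -0.51 to -0.35.

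Levels of different genes were compared as normalized counts per kilobase of exonic sequence. In young aortae *Igfbp7* was the highest with 46393 ± 3210.2 per kilobase (SD, n = 5), and over all mice it held place 11 among 14516 tested genes with an annotated length. *Igfbp5* followed with 4368 ± 757 and *Igfbp4* with 2767 ± 268 per kilobase. *Igfbp6* had a level of 2584 ± 254 per kilobase, and its young values overlapped those of *Igfbp4*. *Igfbp2* had a level of 411 ± 345 and *Igf2r* one of 393 ± 19.6 per kilobase, and these overlapped too. *Igf1r*, with a mean of 151 and a range of 125 to 168, overlapped *Igf1*, with 133 ± 16.7 per kilobase, and *Igfbp3* was the lowest with 58.3 ± 23.1. In old aortae the order of the means was the same, but different neighbours overlapped. *Igfbp5*, at 5222 ± 897 per kilobase, now overlapped *Igfbp4* at 3924 ± 593, which still overlapped *Igfbp6*. Within each old mouse, however, *Igfbp5* was above *Igfbp4*, though barely in replicate 2, and *Igfbp4* was above *Igfbp6*. In young replicates 4 and 5 *Igfbp6* had been above *Igfbp4*. *Igfbp2*, at 2437 ± 1076 per kilobase, now overlapped *Igfbp6* at 2489 ± 396 and lay above *Igf2r* at 392 ± 42.7 in every mouse. *Igf1*, at 98.4 ± 17.1, lay below *Igf1r* at 157 ± 15.5 in every mouse and overlapped *Igfbp3* at 63.8 ± 19.4 per kilobase. With the length of the longest transcript in place of all exons, *Igfbp2* moved ahead of *Igfbp6* in the old aortae and the order was otherwise unchanged.

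The transcripts of the 6 binding proteins were then summed per kilobase in each mouse. *Igfbp7* made up 82.0% ± 1.92 of this sum in young aortae (SD, n = 5) and 76.4% ± 1.43 in old ones. The share of *Igfbp2* was 0.739% ± 0.646 in young aortae, with a range of 0.351% to 1.88%. In old aortae it was 3.93% ± 1.37, with a range of 1.97% to 5.16%, so that on this scale the groups did not overlap. The closest pair was young replicate 3 and old replicate 2, whose levels per kilobase did overlap (1019 and 907). Old replicate 2 had the lowest summed level of all mice (45964 per kilobase), by which its share was divided. The share of *Igfbp4* was 4.90% ± 0.577 in young and 6.65% ± 1.28 in old aortae, and that of *Igfbp5* was 7.73% ± 1.44 and 8.71% ± 0.698. The sum itself was 56581 ± 3113 per kilobase in young and 59879.6 ± 8961 in old aortae, while that of *Igf1* was 133 ± 16.7 and 98.4 ± 17.1. The ratio of the sum to *Igf1* was 365, 436, 442, 540.5 and 373 in the young aortae and 615, 614, 595, 542 and 694 in the old aortae. Every old ratio was above every young ratio, although the gap between the closest pair was small. The range of the old sums (45964 to 70824) held every young sum (53137 to 60301). The ratio therefore mostly restates the lower *Igf1*, whose call was close to the threshold. These shares and ratios describe the 9 genes and were not tested.

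**Figure D3:**
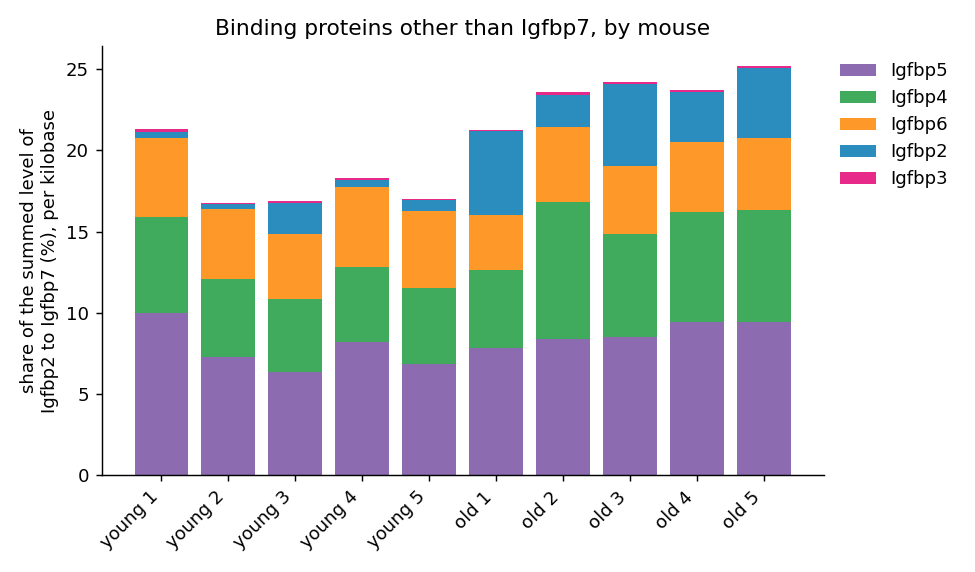
Share of the summed level per kilobase of *Igfbp2* to *Igfbp7* (vertical axis, percent) that each binding protein other than *Igfbp7* took, in each of the 10 mice. The blue *Igfbp2* segment spans 0.351% to 1.88% in young and 1.97% to 5.16% in old aortae.

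Other genes of the pathway were grouped by role in lists that hold 97 genes, of which 88 were tested. edgeR called 6 of them higher and 7 lower in old aortae, or 14.8% of those tested against 11.5% of all genes. The split depended on the setting, with 6 higher and 12 lower without young replicate 1, 2 and 6 without young replicate 2, 2 and 7 without young replicate 4, and 3 and 8 with a trend on GC content and exonic length. It was 7 higher and 5 lower with upper-quartile factors and 6 and 5 with library size alone. It was even under limma-voom (6 and 6) and without old replicate 1 (7 and 7). The median log2 fold change of the tested pathway genes was -0.018. Among other ligands and receptors, none of the 3 tested genes was called. *Igf2* was low, with 142 counts over all 5 young mice and 157 over all 5 old mice. Of its 50-base windows, 62.1% occur in other annotated genes as well, mainly in *Gm49394*. Other genes overlap 64.55% of its exonic sequence, *Gm49394* among them on the same strand. How reads in such stretches were counted is not given in the sources used here, and the effect on its level was not tested. *Igfbp1*, the neighbour of *Igfbp3*, had 1 count over all young mice and 2 over all old mice and was not tested. The insulin receptor gene *Insr* averaged 2818 normalized counts in young mice and 3188 in old mice, with a log2 fold change of 0.19 with an SE of 0.096 (adjusted p = 0.236 by edgeR and Benjamini-Hochberg).

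Of 8 genes of the growth hormone axis, *Ghr* and *Cish* were called, both lower in old aortae. *Ghr* (chromosome 15, 3317760 to 3583492) encodes the growth hormone receptor, whose signal through JAK2 and STAT5 raises *Igf1* transcription in liver. It had 2794, 1893, 2171, 2213 and 1919 normalized counts in young and 1433, 1553, 1416, 1722 and 1558 in old aortae. All old aortae were below all young aortae, and the log2 fold change was -0.51 with an SE of 0.10 (adjusted p = 0.00599 by edgeR and Benjamini-Hochberg). It was called in all 20 alternatives. *Cish*, a feedback inhibitor that STAT5 induces, had 327, 169, 130, 98.5 and 101 in young and 90.9, 90.4, 44.7, 75.2 and 50.6 in old aortae. The groups did not overlap, but young replicate 1 was far above the rest. That mouse also had the highest *Ghr* and the highest summed count of 10 adipocyte markers (24427, the other young aortae 7403 to 13280). The part of fat RNA in the counts of *Ghr* and *Cish* was not tested. For *Cish* the log2 fold change was -1.22 with an SE of 0.35 (adjusted p = 0.0478 by edgeR and Benjamini-Hochberg). *Cish* was called in 9 of 20 alternatives. Its call was lost in edgeR without young replicate 2 (adjusted p = 0.0933) or 3 (adjusted p = 0.0581) and without any single old mouse (adjusted p = 0.0615, 0.0622, 0.111, 0.0812 and 0.108 for replicates 1 to 5). Neither *Jak2*, *Stat5a* nor *Stat5b* was called, nor was *Socs2*, another STAT5 target, with a log2 fold change of 0.13 with an SE of 0.16 (adjusted p = 0.671 by edgeR and Benjamini-Hochberg).

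Among 11 genes for proteases that cut binding proteins and their inhibitors, *Pappa* and *Plat* were called higher and *Htra3* was called lower. *Pappa* (chromosome 4, 65124174 to 65357509) encodes PAPP-A, which cleaves IGFBP4. It had 63.4, 77.5, 93.7, 81.1 and 92.2 normalized counts in young and 107, 158, 119, 112 and 118 in old mice. The highest young value was below the lowest old one, and there was a log2 fold change of 0.59 with an SE of 0.15 (adjusted p = 0.0214 by edgeR and Benjamini-Hochberg). It was called in 18 of 20 alternatives, and with young replicate 2 or 4 left out the edgeR adjusted p was 0.0530 or 0.0516. The PAPP-A inhibitors *Stc1* and *Stc2* were not called, with log2 fold changes of -0.34 (SE 0.33) and 0.0062 (SE 0.21). *Plat*, the tissue plasminogen activator, had a mean of 2395 in young and 3184 in old aortae, and *Htra3*, a secreted serine protease, had 5707 and 4082. Their log2 fold changes were 0.42 (SE 0.076) and -0.48 (SE 0.10), and both were called in all 20 alternatives. Old and young aortae did not overlap in *Plat*, whereas in *Htra3* young replicate 3, with 4178, lay within the old range.

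*Igf2bp2* (chromosome 16, 22059009 to 22163299, minus strand) showed the largest change of the called pathway genes. It encodes a protein that binds the mRNA of *Igf2* and of other genes, and is not a binding protein for the hormone. The young aortae had 108, 131, 127, 109 and 141 normalized counts, and the old aortae had 32.0, 49.0, 34.5, 47.2 and 29.2. All old aortae lay far below the lowest young value. The log2 fold change was -1.67 with an SE of 0.17 (adjusted p = 8.5e-05 by edgeR and Benjamini-Hochberg), and it was called in all 20 alternatives. By size of the change it held place 25 among the 729 genes called lower. The other genes of this family, *Igf2bp1* and *Igf2bp3*, had 2 and 6 counts over all 10 libraries and were not tested. Its window before the RefSeq start, shown as that of the pathway gene with the largest called change, is chr16:22163300-22163549, read on the minus strand of GRCm38. It has 77.2% G or C and 40 CpG dinucleotides, and capitals mark 2 matches to the GC box on the other strand (CCGCCC).
Igf2bp2: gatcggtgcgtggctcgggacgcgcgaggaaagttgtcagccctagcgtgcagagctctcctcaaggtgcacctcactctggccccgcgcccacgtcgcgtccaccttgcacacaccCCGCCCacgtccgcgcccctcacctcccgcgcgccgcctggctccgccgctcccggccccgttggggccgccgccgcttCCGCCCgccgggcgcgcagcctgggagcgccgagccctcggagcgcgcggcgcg

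**Figure D4:**
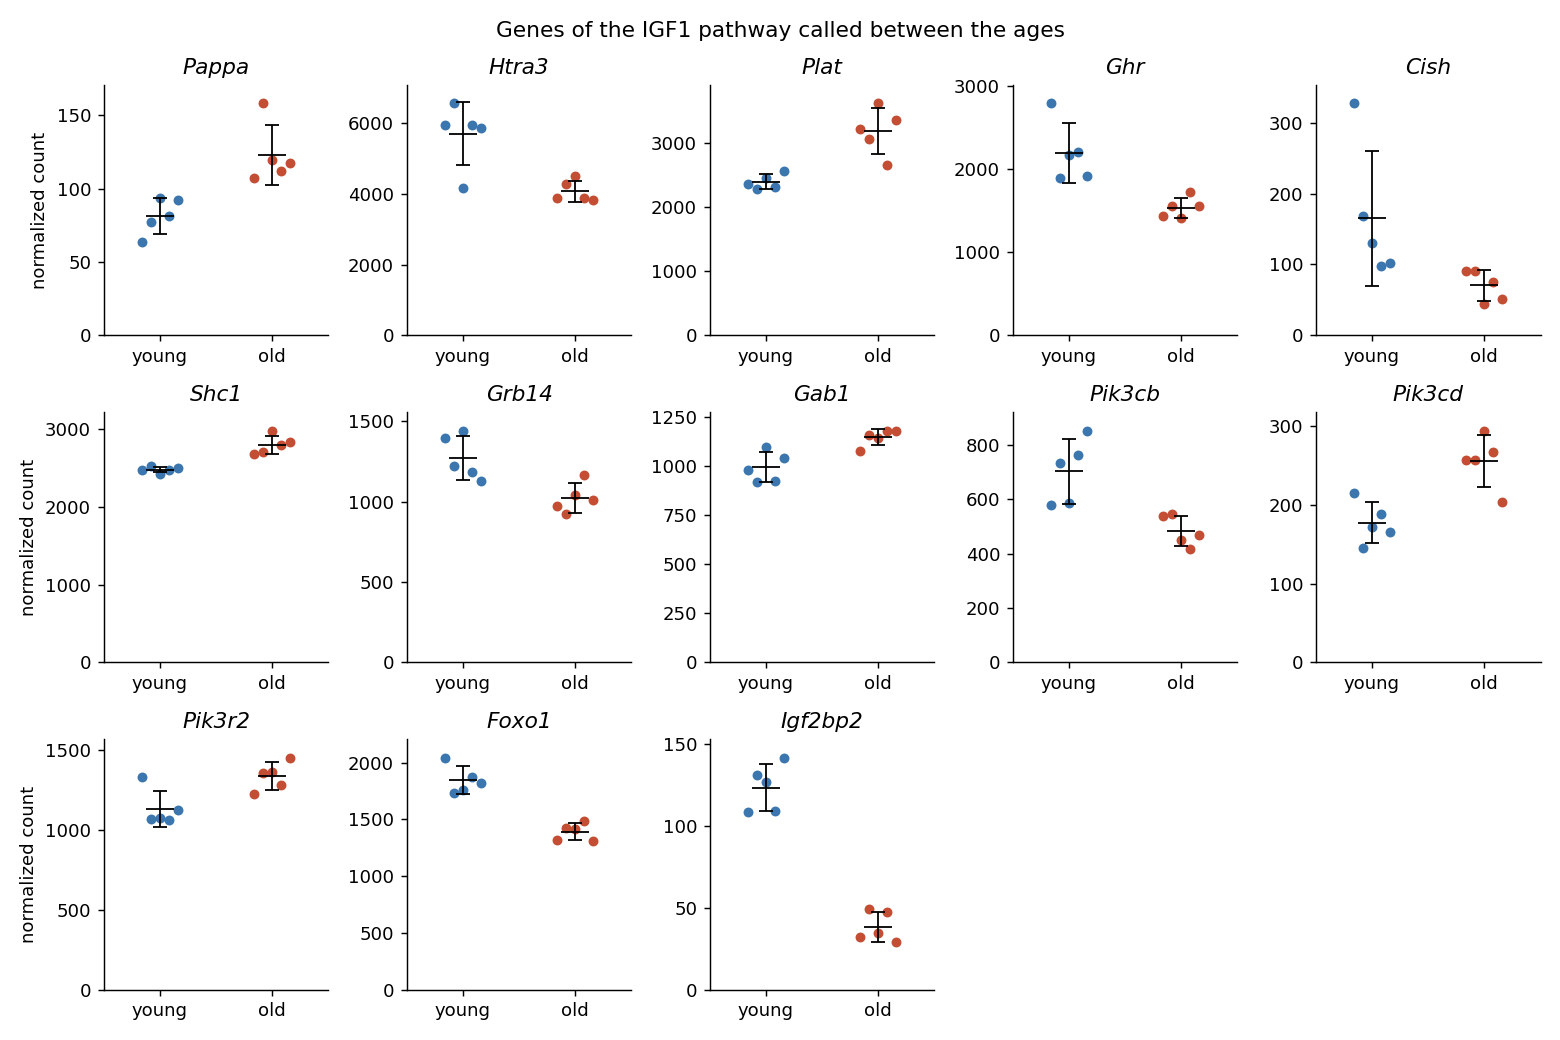
Normalized counts (vertical axes, linear from 0) of all 13 called pathway genes in 5 young (blue) and 5 old (red) aortae, with mean and SD. Old and young points overlap in *Htra3*, *Grb14*, *Gab1*, *Pik3cd* and *Pik3r2* and are apart in the others, and *Igf2bp2* runs from 108 to 141 in young and from 29.2 to 49.0 in old aortae.

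Of 12 tested receptor substrates and adaptors, *Shc1* and *Gab1* were higher and *Grb14*, an adaptor that dampens insulin receptor signalling, was lower in old aortae. Their log2 fold changes were 0.18 (SE 0.048), 0.22 (SE 0.062) and -0.31 (SE 0.083). The main substrates *Irs1* and *Irs2* had log2 fold changes of -0.36 (SE 0.17) and -0.72 (SE 0.27) and were not called (adjusted p = 0.198 and 0.115 by edgeR and Benjamini-Hochberg). Of 27 genes of PI3 kinase, Akt and mTOR signalling, the catalytic subunit *Pik3cb* was lower, and the leukocyte-enriched subunit *Pik3cd* and the regulatory subunit *Pik3r2* were higher. *Pik3cb* averaged 702 normalized counts in young and 483 in old mice, and its log2 fold change was -0.53 with an SE of 0.11 (adjusted p = 0.0104 by edgeR and Benjamini-Hochberg). *Pik3cd* averaged 177 and 256, and its log2 fold change was 0.54 with an SE of 0.12 (adjusted p = 0.0128 by edgeR and Benjamini-Hochberg). *Pik3r2* had a log2 fold change of 0.25 with an SE of 0.072 (adjusted p = 0.0406 by edgeR and Benjamini-Hochberg). None of the 3 *Akt* genes was called, nor were *Mtor* or any of 12 genes of Ras and MAP kinase signalling. The list of FoxO factors and their targets had 14 tested genes, of which *Foxo1*, a transcription factor that Akt keeps out of the nucleus, was called. *Foxo1* had 2044, 1733, 1759, 1873 and 1819.7 normalized counts in young and 1315, 1424, 1415, 1485 and 1312 in old mice, and the log2 fold change was -0.40 with an SE of 0.060 (adjusted p = 0.00109 by edgeR and Benjamini-Hochberg). The groups did not overlap, and *Foxo1*, *Pik3cb* and *Pik3cd* were called in all 20 alternatives.

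The calls of 4 genes with small changes were lost without any one of several mice. *Shc1* was called in 10 of 20 alternatives, *Gab1* in 10, *Grb14* in 13 and *Pik3r2* in 9. In edgeR *Shc1* lost its call without young replicate 2, 3, 4 or 5 (adjusted p = 0.0573, 0.0595, 0.0678 and 0.0546) and without old replicate 3, 4 or 5 (adjusted p = 0.0573, 0.0510 and 0.0617). *Gab1* lost it without young replicate 2, 4 or 5 (edgeR adjusted p = 0.106, 0.104 and 0.0549) and without old replicate 2, 3, 4 or 5 (edgeR adjusted p = 0.0697, 0.0646, 0.0796 and 0.0865). *Grb14* lost it without young replicate 3 (edgeR adjusted p = 0.0663) and without old replicate 1, 2 or 5 (edgeR adjusted p = 0.0624, 0.0600 and 0.0664). *Pik3r2* lost it without young replicate 2, 3, 4 or 5 (edgeR adjusted p = 0.112, 0.0854, 0.103 and 0.0906) and without old replicate 2, 3, 4 or 5 (edgeR adjusted p = 0.0799, 0.0830, 0.0545 and 0.102).

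**Figure D5:**
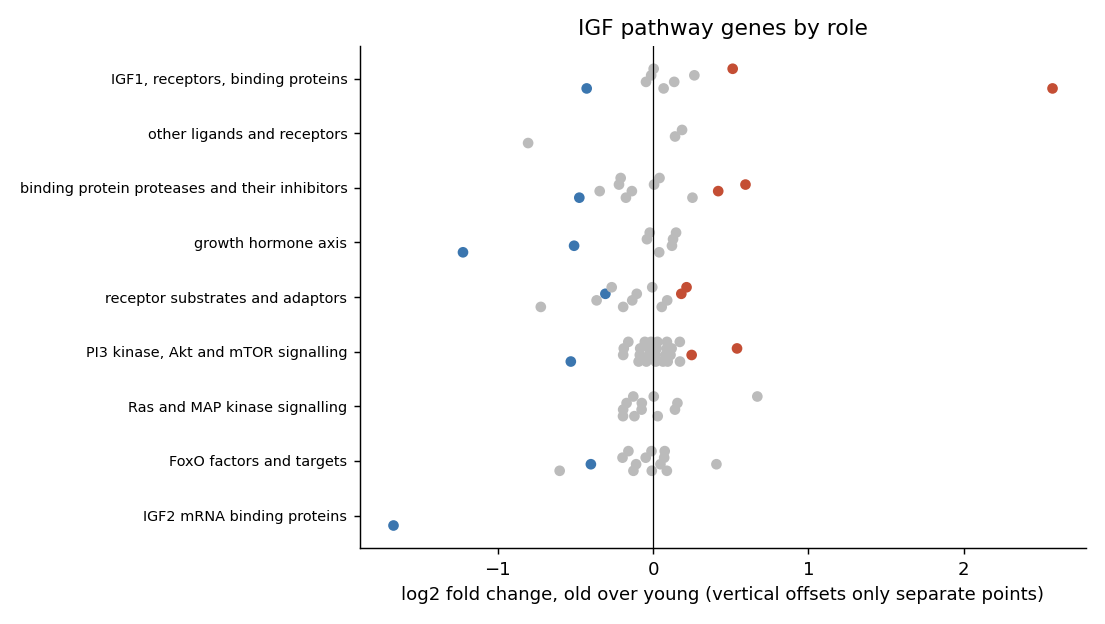
Log2 fold change, old over young (horizontal axis), of each tested gene of the 9 genes and of the 8 pathway lists, 1 point per gene. Red marks genes called higher, blue genes called lower and grey genes that were not called. The points farthest from 0 are *Igfbp2* at 2.57 and *Igf2bp2* at -1.67.

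The smooth muscle markers held the largest summed count in each library (801591 to 1015000 normalized counts), as the labelled tissue would have, and 1 of 10 was called (*Smtn*, higher). Of 12 fibroblast markers, *Lum* was called higher and *Pi16* and *Col1a1* lower, and their sum ranged from 159677 to 184039 in young and from 128628 to 170439 in old aortae. Of 12 macrophage markers, all 12 had a positive log2 fold change and 5 were called higher (*Cd68*, *Adgre1*, *Aif1*, *Fcgr1* and *C1qa*). The macrophage sum was 5514 to 6981 in young and 7137 to 13168 in old aortae, so that the groups did not overlap. Of 10 endothelial markers, 9 had a negative log2 fold change and *Tek* was called lower, with a sum of 22775 to 38304 in young and 13233.5 to 27065 in old aortae. None of 10 adipocyte markers was called, and their sum was 7403 to 24427 in young and 5491 to 11475.5 in old aortae. The highest adipocyte sum was that of young replicate 1. Of 10 Schwann cell markers, of which 9 were tested, *Prx* was called higher and *Mpzl1* and *Pmp22* lower. The Schwann cell sum was 6124 to 8053 in young and 5212 to 5952 in old aortae, so that these groups did not overlap either. Of 10 lymphocyte markers 4 had enough counts for a test and *Cd4* was called higher, and none of 5 skeletal muscle and 5 erythrocyte markers tested was called. Every marker had at least 1 count in the series. The part of these cell types in the changes of *Igf1*, *Igfbp2*, *Igfbp4*, *Ghr*, *Cish* and *Pik3cd* was not tested.

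For *Igfbp4* and *Igfbp2*, which had the smallest p of the 9 genes, the genes with the most similar pattern between mice were sought, by Pearson's r of log2 normalized counts after removal of the group means (10 mice, 14614 genes). For *Igfbp4* they were *Pcdhac2* (r = 0.938, Spearman's rho = 0.952), *Gm33543* (r = 0.928, rho = 0.867) and *Dcaf8* (r = 0.927, rho = 0.952). For *Igfbp2* they were *Sf3a3* (r = 0.934, rho = 0.842), *Col2a1* (r = 0.929, rho = 0.915) and *Psma1* (r = 0.928, rho = 0.939). Without the 2 mice farthest from the median r was 0.785, 0.687 and 0.915 for the genes like *Igfbp4* and 0.803, 0.843 and 0.878 for those like *Igfbp2*. These are the highest of many values over few mice that share library depth and scaling, and none of the 6 genes was called between the ages. *Col2a1*, the cartilage collagen, averaged 9.18 normalized counts in young mice and 42.0 in old mice.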

How the data were processed

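Poly(A) RNA of 10 mouse aortae was sequenced with a stranded kit, 1 library per mouse. The authors filtered reads with fastp 0.20.0, aligned them to GRCm38 with STAR 2.7.0f and counted them per gene with featureCounts of Subread 1.6.4. They deposited raw counts per gene symbol, and the strand setting and the treatment of multimapping reads are not given in the sources used here. Groups were taken from the age in the labels, and all 10 libraries were used.

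Genes were filtered with filterByExpr, scaled by TMM and tested with robust quasi-likelihood F tests in edgeR 4.0.16 (R 4.3.3) without covariates, with Benjamini-Hochberg adjustment over 14614 genes and a threshold of 0.05. The SE was the log2 fold change divided by the root of F. Normalized counts used DESeq2 1.42.0 size factors. The alternatives were other scalings and filters, DESeq2, limma 3.58.1, a GC and length trend, a replicate block and each mouse left out, 20 in all. The fits were tested on simulated data. Of 55453 symbols, 54471 matched 1 gene of GENCODE M21, which gave coordinates and exon lengths. Promoter windows came from RefSeq (GRCm38.p6).

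Named were the 9 genes, every called gene of the pathway and marker lists, *Igf2*, *Igfbp1*, *Insr*, *Ghr* and *Pappa*, and the 3 genes most correlated with each of the 2 called members of smallest p. *Socs2*, *Stc1*, *Stc2*, *Irs1*, *Irs2*, *Jak2*, *Stat5a*, *Stat5b*, *Mtor*, the *Akt* genes, *Igf2bp1* and *Igf2bp3* were named in addition, after their values were seen. The genes and lists were chosen with earlier results of these data known. Library totals were 19640401 to 22886153 counts, and chi-square per degree of freedom between mice of 1 group was 8.61 to 64.1, so that spread between mice exceeded counting error.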

Additional observations from a re-analysis of the deposited data

Results flagged for a closer look

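In 6 of 48 sets of 5 values (24 genes in 2 groups), 1 mouse stood apart by Dixon's test at the 95% level, where chance gives about 1 in 20, or 2.4 sets. *Igfbp2* had 1881 normalized counts in young replicate 3 and 359 to 663 in the other young aortae. *Htra3* had 4178 in the same mouse and 5878 to 6563 in the others. *Igf2* had 49.1 in young replicate 1 against 20.3 to 25.2. *Pik3r2* had 1328 in young replicate 1 against 1061 to 1124. *Insr* had 3966.5 in old replicate 2 against 2909 to 3138. *Pappa* had 158 in old replicate 2 against 107 to 119.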

How the results depend on the processing

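Of the 9 genes, 2 to 3 were called under each of 20 alternatives. All genes called numbered 1676, and 2599 under limma-voom with sample quality weights, 2325 under DESeq2, and 1132 (without young replicate 4) to 2367 (without young replicate 1) with 1 mouse left out. A GC and length trend moved the share of higher calls from 56.5% to 46.4%. The other pathway genes called numbered 13, and 8 (without young replicate 2 or old replicate 5) to 18 with 1 mouse left out. The log2 ratio of summed binding protein level to *Igf1* was 0.52, and 0.46 to 0.60 with 1 mouse left out.

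After removal of the group means, same-numbered young and old libraries had correlations of -0.30, -0.074, 0.098, -0.048 and 0.13 for replicates 1 to 5. For replicates 3 and 5 this exceeded every correlation of that old library with the other young ones (highest 0.095 and 0.074). For replicate 1 it was below all of them, and for replicates 2 and 4 it lay in between. These values cannot settle whether the numbers pair the mice. With the replicate number as a block, 1261 of all genes, 2 of the 9 genes and 9 other pathway genes were called, *Igfbp2* had a log2 fold change of 2.71, and *Igf1* was not called (edgeR adjusted p = 0.0994).

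The signs that turned were those of genes near 0 and not called. *Igf2r* was at -0.0043 with DESeq2 size factors in edgeR and in DESeq2, -0.0014 under limma-voom, -0.00025 without a filter, -0.0016 with the block, -0.0023 with the GC and length trend and -0.065 to 0.036 with 1 mouse left out. *Igfbp7* was at 0.016 with upper-quartile factors, 0.014 with library size alone and -0.078 to 0.065 with 1 mouse left out. The same range was -0.060 to 0.32 for *Igfbp3*, -0.12 to 0.014 for *Igfbp6* and -0.020 to 0.42 for *Igf2*. The cause of these changes was not tested.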
